A study of Ovis aries with 16 samples.

Results

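The array held 31 probes for 25 solute carrier genes, among 15008 probes with 14351 gene names. They were found by a gene name that starts with SLC or a description that contains the words solute carrier family, and 34 probes met this rule before 3 were left out. Only 1 member, SLC35A4, was found by its description alone. The rule used names and no measured value. It also took in SLC9A3R1, a scaffold protein that binds sodium hydrogen exchangers and moves no solute itself. Genes that the array lists under other names, such as GLUT-1, do not meet the rule and are given apart.

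Hippocampal RNA of 16 late-gestation fetal sheep was measured, with 1 one-color array per fetus. The groups were normoxia control (NC, n = 3), normoxia plus ketamine (NK, n = 4), hypoxia control (HC, n = 5) and hypoxia plus ketamine (HK, n = 4). Hypoxia lasted 30 min, was produced through the gas the ewe breathed, and was followed by 23.5 h of normoxia, and the normoxic fetuses had the same timing without it, so that tissue was taken at 24 h. Ketamine, an antagonist of the NMDA class of glutamate receptor, was given to the fetus intravenously at 3 mg/kg before the stimulus. All fetuses had been chronically catheterized, nearly all were twins, and the whole hippocampus of 1 hemisphere was used. Each pregnancy was assigned to normoxia or hypoxia, and the labels do not tie arrays to ewes. Some arrays of a group, or of NC and NK or of HC and HK, may therefore share a pregnancy.

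Solute carriers are membrane proteins that move sugars, amino acids, lactate, metal ions and nucleotides, each family with its own cargo. Facilitative glucose transporters of the SLC2 family let sugar pass down its gradient. In brain, SLC2A1 (GLUT-1) is known in the endothelium of the blood-brain barrier and in glia, SLC2A3 (GLUT3) is the main neuronal glucose transporter, and SLC2A5 (GLUT5) is a fructose transporter found in microglia. SLC16A1 (MCT1) carries lactate and ketone bodies together with a proton. The SLC25 family sits mostly in the inner mitochondrial membrane and exchanges nucleotides and metabolites with the cytosol.

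The probes behind the differences described below are shown first. SLC2A3 and SLC2A5 each had a pair of probes of 60 bases, and 30 bases of each are printed 5′ to 3′. The SLC2A3 probes, at bases 3740 and 3584 of the transcript on the array, have no run of more than 8 bases in common, while those of SLC2A5 overlap by 20 bases, shown in capitals.
SLC2A3 A_70_P051106: ggaatttttcccagttctcagtgaccaggt
SLC2A3 A_70_P051107: attttggttctaagttctcaccattccctc
SLC2A5 A_70_P051036: AGATTACTGATCCCAAATTAtattattaca
SLC2A5 A_70_P051037: accaagtcagAGATTACTGATCCCAAATTA
The SLC2A3 pair therefore reads separate stretches of 1 transcript, and the SLC2A5 pair partly the same stretch. The whole probes of SLC25A33 and SLC16A1 follow, the latter because its pair, designed on 1 sequence tag, gave unlike signals.
SLC25A33 A_70_P064666: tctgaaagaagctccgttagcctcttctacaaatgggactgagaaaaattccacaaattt
SLC16A1 A_70_P026262: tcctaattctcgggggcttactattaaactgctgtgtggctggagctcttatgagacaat
SLC16A1 A_70_P026261: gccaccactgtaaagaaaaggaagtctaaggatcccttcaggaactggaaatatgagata

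Levels are log2 of the background-subtracted intensity minus the 75th percentile of each array, so 0 is a spot as bright as that percentile, and a difference of 1 is a doubling. Before scaling, that percentile lay between 881.5 and 1199.5 intensity units over the arrays. A probe was tested where it was well above background, set by the software at 13 standard deviations, on at least 3 of 16 arrays. This held for 12543 probes and for 26 of the 31 solute carrier probes, of which 24 were well above background on all 16 arrays. SLC6A2 was so on 8 arrays. Untested were both probes of SLC5A1, a sodium-coupled glucose transporter of gut and kidney, both of SLC9A3, a sodium hydrogen exchanger of the same organs, and 1 of SLC16A1. Of these 5 probes, 1 SLC5A1 probe and the SLC16A1 probe were well above background on 1 array and the other 3 on none.

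The first comparison asks what transient hypoxia without ketamine left in the hippocampus a day later (HC-NC). In limma's fit of all groups, 5 solute carrier probes of 3 genes met the criterion, an unadjusted p under 0.05, as higher in HC, and 0 as lower. Those were both probes of SLC2A3, both of SLC2A5, and SLC25A33, which carries pyrimidine nucleotides into mitochondria. They make up 19.2% of the 26 probes, against 10.8% of all probes tested, of which 4.54% were higher and 6.27% lower. SLC2A3 and SLC2A5 enter that share through both of their probes. With the probes of a gene averaged, 3 of 23 solute carriers passed, against 10.8% of all. After Benjamini-Hochberg adjustment over all probes tested, 0 of the 26 passed (smallest adjusted p = 0.19), while 2 of all probes tested did (0.0159%). The median log2 difference of the solute carriers was 0.08, with 18 positive and 8 negative, against -0.03 over all probes tested.

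The SLC2A3 differences in HC-NC were near a doubling, but did not pass adjustment. On its probe A_70_P051106 the level was 3.38, 3.14 and 3.44 on the NC arrays and 5.11, 4.57, 4.55, 4.39 and 3.61 on the HC arrays. The groups did not overlap, and HC replicate 5 came nearest to NC. The log2 difference was 1.13 (SE 0.29, adjusted p = 0.19 by limma), which is 2.18-fold, with a 95% interval from 0.50 to 1.75. On A_70_P051107 the NC arrays were at 3.51, 2.96 and 3.24 and the HC arrays at 4.89, 4.28, 4.30, 3.93 and 3.42. There HC replicate 5 lay below NC replicate 1, and the difference was 0.93 (SE 0.28, adjusted p = 0.226 by limma). Both probes put HC replicate 1 highest and HC replicate 5 lowest of the group. Within the slide that held replicates 1 and 2 of each group, the differences were 1.58 and 1.35, and within the other slide 0.74 and 0.64, which missed the criterion (SE 0.37 and 0.33). With normexp background correction they were 0.77 and 0.76 and met it, while that correction moved the median of all probes by 0.37.

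SLC2A5 differed by a like amount but on other arrays. Its probe A_70_P051036 was at -1.11, -0.57 and -0.88 on the NC arrays and at -0.92, 1.19, 0.21, -0.04 and 0.33 on the HC arrays. HC replicate 1, the highest array for SLC2A3, lay inside the NC range here, and the other 4 HC arrays were above all NC arrays. The difference was 1.01 (SE 0.37, adjusted p = 0.325 by limma). On A_70_P051037 the NC arrays were at -1.31, -0.86 and -1.01 and the HC arrays at -1.08, 1.07, 0.09, -0.18 and 0.20, with a difference of 1.08 (SE 0.37, adjusted p = 0.281 by limma). Without NC replicate 1 the first of these probes missed the criterion, at 0.88 (SE 0.43), and the second kept it, at 0.95 (SE 0.43). Within slide 1 both missed it, at 0.97 and 1.08 (SE 0.72 each), and within slide 2 both met it, at 1.05 and 1.04 (SE 0.34 and 0.32).

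SLC2A2 (GLUT2), the transporter of liver and pancreatic islets, was well above background on all 16 arrays and gave no such difference. Its level ranged from -5.73 to -5.25 in NC and from -5.95 to -5.10 in HC, and the difference was -0.02 with a 95% interval from -0.61 to 0.56. The lowest and the highest of all 16 arrays, at -6.16 and -4.81, were both NK.

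**Figure D1:**
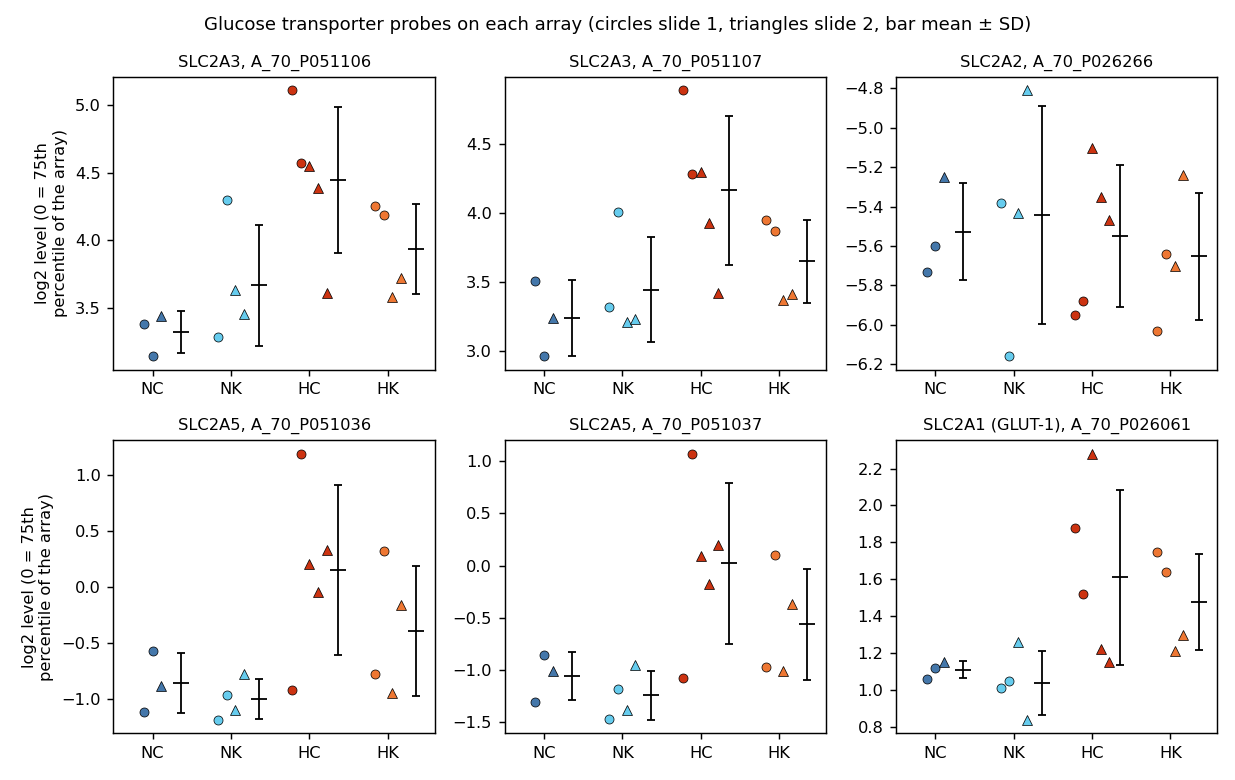
Level of each glucose transporter probe on each array by group, on the log2 scale relative to the 75th percentile of the array, with circles for slide 1, triangles for slide 2 and the group mean ± SD beside the points. SLC2A3 was higher in all 5 HC arrays than in NC on A_70_P051106, SLC2A5 in 4 of 5 HC arrays, and SLC2A2 overlapped between all groups; SLC2A1, listed on the array as GLUT-1, is drawn for comparison.

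The mean level of microglial and macrophage genes had its highest and lowest HC arrays in common with SLC2A5. Of 12 listed markers 6 were tested. In HC-NC CD14 (1.97), FCER1G (0.72) and FCGR1A (1.13) were past the criterion, all higher, against 4.54% of all probes tested. None of these passed adjustment (adjusted p = 0.149, 0.351 and 0.366 by limma). AIF1, CX3CR1 and other defining markers were not analysed here. The mean level of the 6 ranged from -5.19 to -4.46 in NC, from -4.98 to -4.15 in NK, from -4.36 to -2.71 in HC and from -4.66 to -3.70 in HK. HC replicate 2, with the highest SLC2A5, had the highest mean of the 16 arrays at -2.71, and HC replicate 1, with the lowest SLC2A5 of its group, had the lowest HC mean at -4.36. Taken singly, 3 of the 6 genes, FCER1G, ITGAM and CYBB, had both of these extremes, while CD14 was lowest in HC replicate 5, FCGR2B in HC replicate 3, and FCGR1A was highest in HC replicate 4. FCGR2B and CYBB were well above background on 4 and 6 arrays only. Between the extremes the order of the HC arrays differed. HC replicate 5 lay above HC replicate 4 on SLC2A5 probe A_70_P051037 (0.20 against -0.18), but below it for the mean (-3.93 against -3.65). In tissue RNA, more cells of a type and more RNA per cell cannot be told apart, and the part of these genes in the SLC2A5 difference was not tested.

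**Figure D2:**
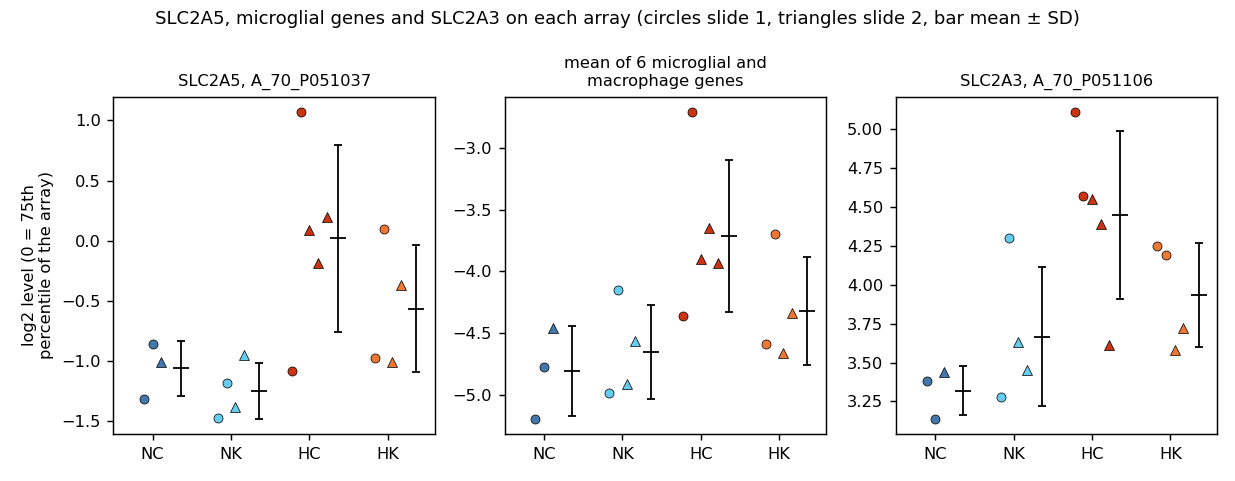
Level on each array of an SLC2A5 probe, of the mean of 6 microglial and macrophage genes, and of an SLC2A3 probe, on the log2 scale relative to the 75th percentile of the array, with the mean ± SD of each group. HC replicate 2 was highest for SLC2A5 at 1.07 and for the microglial mean at -2.71, whereas HC replicate 1 was highest for SLC2A3 at 5.11.

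Some markers of other cells also met the criterion in HC-NC, and others did not. Of the neuronal genes tested, 4 of 5 met the criterion as lower in HC, against 6.27% of all probes tested. They were the glutamate receptor subunits GRIN1 (-1.02), GRIA1 (-0.65), GRIA2 (-0.42) and GRIA4 (-0.35), while SLC2A3, a gene of neurons, was higher. None of these subunits passed adjustment (adjusted p = 0.373, 0.378, 0.379 and 0.41 by limma). The red cell chaperone gene AHSP was higher by 2.52 (adjusted p = 0.192 by limma), and HBB differed by 0.43 and did not pass. Of the astrocyte markers GJA1 was higher (0.46, adjusted p = 0.454 by limma), and GFAP and AQP4 did not pass. None of the 2 endothelial, 4 choroid plexus and 3 meningeal and mesenchymal markers tested passed. Their part in the differences of the solute carriers was not tested.

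SLC25A33 was the other member past the criterion. Its level was 0.67, 0.97 and 0.90 on the NC arrays and 1.24, 1.18, 1.34, 1.05 and 1.2 on the HC arrays, so the groups did not overlap and the spread was small. The difference was 0.36 (SE 0.14, adjusted p = 0.378 by limma). It missed the criterion without NC replicate 1, at 0.27 (SE 0.16), without HC replicate 3, at 0.32 (SE 0.15), and within either slide, at 0.39 (SE 0.20) and 0.30 (SE 0.26). With normexp background correction it was 0.16 (SE 0.22) and missed it, below the median of all probes, which that correction moved by 0.37.

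The other 11 SLC25 carriers did not pass, with 6 differences above 0 and 5 below. The adenine nucleotide translocators, which exchange ADP and ATP across the inner mitochondrial membrane, lay well above the 75th percentile on every array. SLC25A4 ranged from 4.19 to 4.68 over the 16 arrays and differed by -0.04 (SE 0.12) in HC-NC. SLC25A5 ranged from 4.11 to 4.60 and differed by 0.05 (SE 0.12). SLC25A6 was at 3.31, 3.32 and 3.31 in NC and between 3.34 and 3.51 in HC, so these groups did not overlap, but its difference of 0.14 (SE 0.11, adjusted p = 0.708 by limma) was not past the criterion. SLC25A17, a carrier of the peroxisome, had the lowest difference of the 26 probes at -0.20 (SE 0.16). In all, 3 of the 26 probes (11.5%) had groups that did not overlap, each higher in HC, against 7.81% of all probes tested.

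Other members were close to 0. The zinc transporters SLC39A3, SLC39A7 and SLC39A13 differed by 0.04, -0.09 and 0.10 (SE 0.16, 0.11 and 0.14). SLC35A4, of a family of nucleotide sugar transporters, differed by -0.01 (SE 0.09). Both SLC9A3R1 probes, which share 59 bases and so count as 1 reading, differed by 0.12 and 0.08. SLC6A2, the noradrenaline transporter, stood clear of background on none of the NC arrays and on 3 HC arrays, so no difference is given. The carnitine carrier SLC25A20 differed by 0.21 (SE 0.13).

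**Figure D3:**
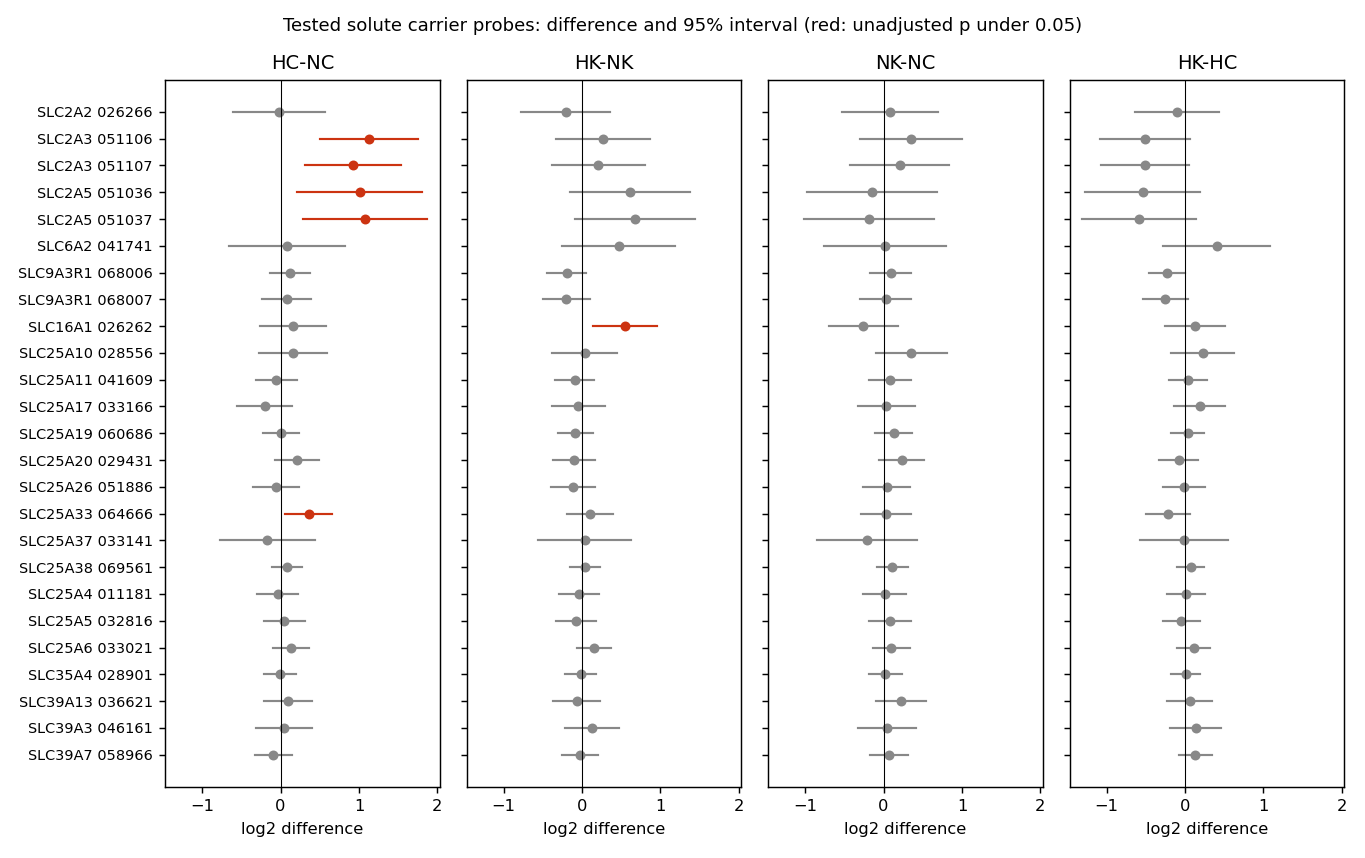
Log2 difference and 95% interval of 25 of the 26 tested probes, labelled by gene and the last digits of the probe name, in 4 comparisons, in red where the unadjusted p was under 0.05. In HC-NC the 5 red probes are those of SLC2A3, SLC2A5 and SLC25A33, in HK-NK the only one is SLC16A1, and in NK-NC and HK-HC there is none.

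Ketamine in normoxia (NK-NC) changed no solute carrier past the criterion, 0 of 26 against 1.78% of all probes tested, and 0 after adjustment (smallest adjusted p = 1 by limma). Of the differences 21 were positive, with a median of 0.06 against 0.00 over all probes tested, and none had groups that did not overlap, against 3.52% of all probes. SLC2A3 stood at 3.28, 4.30, 3.63 and 3.45 on the NK arrays of A_70_P051106. NK replicate 2 lay well within the HC range and replicate 3 just above its lowest array, and the difference from NC was 0.35 (SE 0.31). On A_70_P051107 the NK arrays were at 3.32, 4.01, 3.21 and 3.23. The same array, NK replicate 2, was the highest of all 16 for CLDN1 and AQP1, 2 of the 4 choroid plexus markers tested, at -1.71 and -2.12, where the others lay between -5.30 and -4.37 and between -8.47 and -4.90, with AQP1 well above background on 4 arrays only. It was not the highest for the other markers, TTR at 6.14, where NC replicate 2 was at 6.41 and HC replicate 5 at 6.28, and CLDN3 at -1.61, where the others lay between -2.41 and -0.93. Their part in the SLC2A3 level was not tested. SLC2A5 was at -1.18, -0.96, -1.09 and -0.77 on the NK arrays of A_70_P051036 and differed from NC by -0.14 (SE 0.39). The largest positive difference of a member was 0.35 (SE 0.21) in SLC25A10, the mitochondrial dicarboxylate carrier.

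The response to hypoxia in ketamine-treated fetuses was read from HK-NK, which shares no array with HC-NC. SLC16A1 was the only solute carrier past the criterion, 1 of 26 (3.85%) against 5.26% of all probes tested, of which 2.81% were higher and 2.46% lower. Its probe A_70_P026262 was at -0.78, -0.10, 0.16 and -0.05 on the NK arrays and at 0.72, 0.01, 0.41 and 0.31 on the HK arrays. The groups overlapped, with NK replicate 1 far below the rest. The difference was 0.55 (SE 0.19, adjusted p = 0.9 by limma), or 1.47-fold, and without NK replicate 1 it was 0.35 (SE 0.16), which met the criterion. Within slide 2 it was 0.30 and missed the criterion (SE 0.18), and within slide 1, which held NK replicate 1, it was 0.80 (SE 0.31) and met it. Without ketamine the same probe differed by 0.16 (SE 0.20) between HC and NC. Its second probe, printed above, was not tested, so no other reading of the gene bears on this difference.

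SLC2A3 and SLC2A5 were not past the criterion in HK-NK. For SLC2A3 the HK arrays were at 4.25, 4.19, 3.58 and 3.72 on A_70_P051106 and at 3.95, 3.87, 3.37 and 3.41 on the other probe. They overlapped the NK arrays on both, with differences of 0.27 and 0.21 (SE 0.28 and 0.27). Without NK replicate 2, the highest NK array, these were 0.48 and 0.40 (SE 0.28 each) and still missed the criterion. For SLC2A5 the HK arrays were at -0.77, 0.32, -0.94 and -0.16 on A_70_P051036 and at -0.97, 0.10, -1.01 and -0.37 on A_70_P051037. HK replicates 2 and 4 were above all NK arrays and replicates 1 and 3 were not, and the differences were 0.61 and 0.68 (SE 0.36 each, adjusted p = 0.945 by limma), with the interval of the second from -0.08 to 1.45. No member had HK and NK arrays that did not overlap, against 3.32% of all probes.

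Ketamine in hypoxic fetuses (HK-HC) gave 0 of 26 solute carriers past the criterion, against 4.74% of all probes tested (2.86% higher and 1.87% lower), and 0 after adjustment (smallest adjusted p = 0.969 by limma). The HC arrays take part in both this comparison and HC-NC, so an array that lies high in HC raises 1 difference and lowers the other. SLC2A3 was lower in HK by amounts that missed the criterion, -0.51 on each probe (SE 0.27 and 0.26), with intervals from -1.08 to 0.06 and from -1.07 to 0.05. With the slide as a block these became -0.55 and -0.56 and met it (SE 0.24 and 0.21), and they did so without HC replicate 5, at -0.72 and -0.70 (SE 0.23 each), while without HC replicate 1 they were -0.34 and -0.33 (SE 0.25 and 0.24) and missed it. Within slide 1 they were -0.62 and -0.68, and within slide 2 -0.53 and -0.49, none past the criterion. SLC2A5 differed by -0.54 and -0.58 (SE 0.34 each). Without HC replicate 1 these were -0.81 and -0.86 and met the criterion (SE 0.29 and 0.28), as they did without HK replicate 2, at -0.78 and -0.80 (SE 0.35 each), while without HC replicate 2 they were -0.28 and -0.32 (SE 0.30 and 0.29).

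Other members in HK-HC were spread on both sides of 0, 13 positive and 13 negative, with a median of 0.00. The 1 member whose groups did not overlap, against 1% of all probes, was SLC9A3R1 on A_70_P068006, where the HK arrays lay between -2.32 and -2.28 and the HC arrays between -2.28 and -1.73, which meet at -2.28 once rounded. Its difference was -0.23 (SE 0.11), which missed the criterion, and without HC replicate 1 it was -0.28 (SE 0.11) and met it. On A_70_P068007, the other SLC9A3R1 probe, the HK and HC arrays overlapped, and the difference was -0.25 (SE 0.13). SLC6A2 was higher in HK by 0.40 (SE 0.32), and with the slide as a block by 0.48 (SE 0.19), past the criterion, but it was well above background on 3 of 5 HC and 3 of 4 HK arrays. SLC25A33 in HK was at 1.28, 0.84, 0.62 and 1.18, reaching from below all HC arrays to among the highest, and differed from HC by -0.22 (SE 0.13).

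Whether ketamine acted differently in hypoxia and in normoxia was tested by the interaction term, HK-HC minus NK-NC. No solute carrier passed, 0 of 26 against 3.44% of all probes tested (2.45% higher and 0.989% lower), and 0 after adjustment (smallest adjusted p = 1 by limma). The term was -0.86 (SE 0.41) and -0.72 (SE 0.40) for the SLC2A3 probes, with intervals from -1.73 to 0.01 and from -1.56 to 0.13. With the slide as a block it was -0.96 and -0.84 and met the criterion (SE 0.37 and 0.32), as it did without HC replicate 5, at -1.07 and -0.90 (SE 0.34 each), while without HC replicate 1 it was -0.69 and -0.54 (SE 0.37 and 0.35) and missed it. For SLC2A5 the term was -0.40 on each probe (SE 0.52 and 0.51), with intervals from -1.50 to 0.71 and from -1.50 to 0.70. These intervals hold both no interaction and one as large as the hypoxia difference itself.

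**Figure D4:**
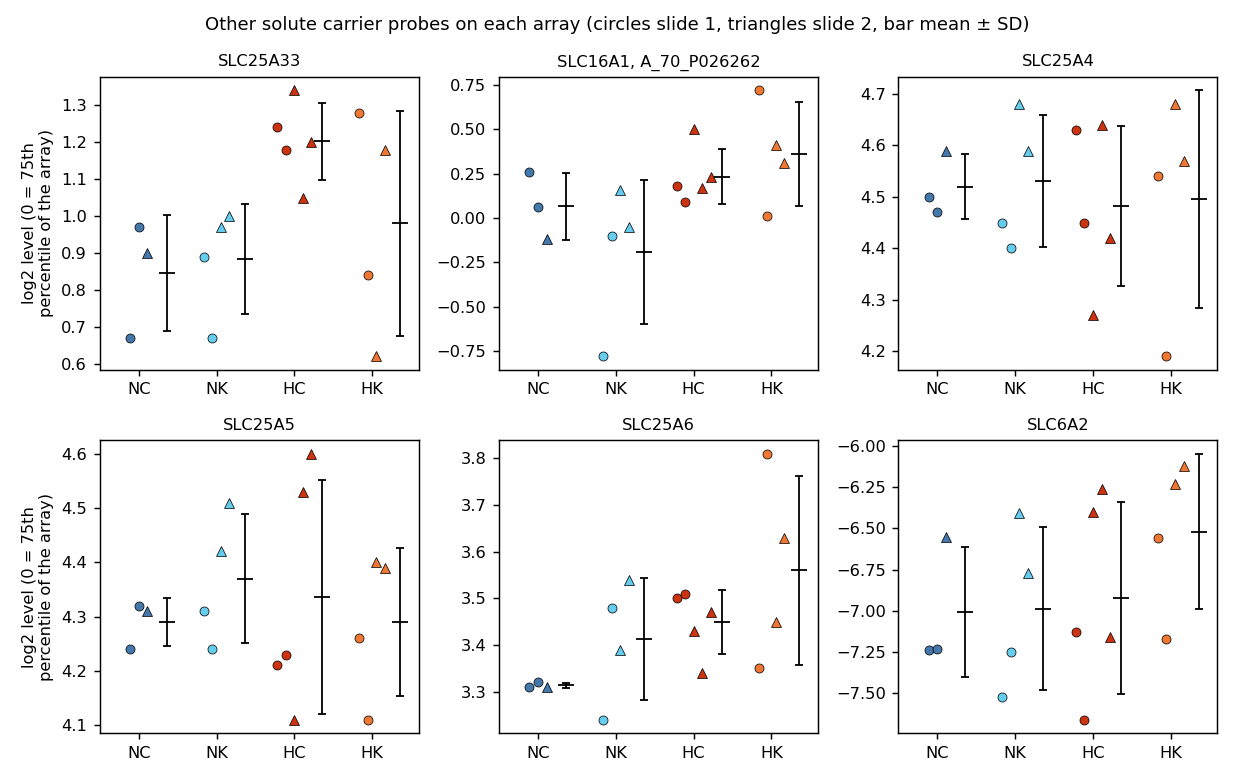
Level on each array of 6 further solute carrier probes by group, on the log2 scale relative to the 75th percentile of the array, with circles for slide 1, triangles for slide 2 and the group mean ± SD. SLC25A33 was higher in the 5 HC than in the 3 NC arrays, SLC16A1 had its lowest value, -0.78, in NK replicate 1, and SLC25A4, SLC25A5 and SLC6A2 overlapped between the groups.

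Transporters under older names on the array, 27 probes for 14 genes with 21 probes tested, add the glucose transporter of the blood-brain barrier. SLC2A1 was higher in HC on both probes, by 0.50 each (SE 0.22 and 0.20, adjusted p = 0.429 and adjusted p = 0.378 by limma). On A_70_P026061 the NC arrays were at 1.06, 1.12 and 1.15 and the HC arrays at 1.88, 1.52, 2.28, 1.22 and 1.15, so HC replicates 4 and 5 lay next to NC. The calls were lost when any of several arrays was left out, for example at 0.33 and 0.40 (SE 0.18 and 0.19) without HC replicate 3 and at 0.48 and 0.46 (SE 0.26 and 0.24) without NC replicate 1. In HK-NK the differences were 0.43 and 0.41 (SE 0.21 and 0.19), of which the second met the criterion and lost it under 17 of 28 alternatives, and in HK-HC -0.14 and -0.03. SLC2A8 (GLUT8), an intracellular hexose transporter, differed in HC-NC by -0.05 and -0.09 (SE 0.36 each).

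The glutamate transporters SLC1A2 (EAAT2) and SLC1A3 (EAAT1), which clear glutamate into astrocytes, were not past the criterion in HC-NC, at -0.40 and -0.41 on the EAAT2 probes and -0.30 and -0.36 on the EAAT1 probes. A further SLC1A2 probe, listed as GLT-1 and well above background on 4 arrays only, differed by 0.004 (SE 0.37). The neuronal SLC1A1 (EAAT3) was lower in HK-NK on 1 of its probes, by -0.54 (SE 0.20, adjusted p = 0.9 by limma), and differed by -0.36 (SE 0.23) on the other. That call was lost without NK replicate 1 (-0.45, SE 0.21) and without HK replicate 4 (-0.43, SE 0.21), within slide 2 (-0.33), and with normexp background correction (-0.04). In the deposited normalized values the difference was -0.11 and kept the call. SLC7A5 (LAT1), a carrier of large neutral amino acids, was higher in HK-HC by 0.51 (SE 0.23, adjusted p = 0.969 by limma), and missed the criterion under 15 of 29 alternatives.

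SLC15A1 (PEPT1), a peptide transporter of the gut, was a dim signal and was picked out after its values were seen. Its probe A_70_P051151 was well above background on all 4 HK arrays, 2 HC arrays, 1 NK array and no NC array, and A_70_P051152 on 2 HK and 4 HC arrays and nowhere else. On A_70_P051151 the NK arrays were at -8.89, -7.79, -6.04 and -9.16, the HC arrays at -7.27, -6.35, -9.42, -8.21 and -7.81, and the HK arrays at -4.81, -5.91, -5.86 and -6.80. HK overlapped both groups, and met the criterion as higher than NK (adjusted p = 0.9 by limma) and than HC (adjusted p = 0.969 by limma). Only 1 NK array and 2 HC arrays were well above background, so no size is given. On A_70_P051152, not well above background on any NK array, those arrays were at -8.40, -9.02, -6.53 and -7.87. The HK arrays were at -4.74, -6.79, -6.09 and -7.13 and overlapped them. HK was higher than NK (adjusted p = 0.9 by limma), but only 2 HK arrays were well above background, so no size is given. On this probe the difference of HK from HC missed the criterion. The interaction term met the criterion on A_70_P051151, without passing adjustment, and missed it on A_70_P051152.

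Genes around sugar use did not move in 1 direction with the glucose transporters. Of the glycolysis and lactate genes 5 were tested, and in HC-NC 0 were higher and 1 was lower, HK1, the brain hexokinase (-0.61, SE 0.21). GAPDH differed by -0.23 (SE 0.12), and LDHA, which makes lactate, by 0.02 (SE 0.24). Of 10 energy regulators tested, PPARG was higher (0.52), and IGF1 (-0.59), the AMP kinase subunit PRKAA2 (-0.44) and CPT1A (-0.87), which hands fatty acids to mitochondria, were lower. Of 7 genes of the response to hypoxia, IGFBP3 was higher (2.07) and ARNT, the partner of the hypoxia-inducible factors, was lower (-0.54). VEGFA (-0.23) and HIF1A (0.12) did not pass. None of the glycolysis, energy and hypoxia genes passed adjustment in HC-NC (smallest adjusted p = 0.181 by limma, ARNT). Of all probes tested, 4.54% met the criterion as higher and 6.27% as lower. Of 9 other membrane transporters tested, the aquaporins and ABC pumps among them, 0 passed in any of the 5 comparisons. In HK-HC HIF1A (-0.44, SE 0.17), IGF1R (-0.35, SE 0.13) and PPARG (-0.44, SE 0.165) were lower. ARNT (0.35, SE 0.12) and PPARGC1A (0.375, SE 0.16) were higher, and none of the glycolysis genes passed. ARNT was also lower with ketamine in normoxia, NK-NC (-0.48, SE 0.14), where EPAS1, another of the 7 genes, was higher (0.93, SE 0.26). In HK-NK ARNT was higher (0.29, SE 0.13), as were IGFBP1 and IGFBP3. The interaction terms of ARNT, 0.84 (SE 0.19), and PRKAA2, 0.67 (SE 0.26), met the criterion. In HK-NK, NK-NC, HK-HC and the interaction, 0 of all probes tested passed adjustment.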

How the data were processed

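The deposited scanner files carry Feature Extraction 10.1.1.1 in their headers, although the methods name another version. The deposited intensity of a spot was background-subtracted and detrended within the array, near-background spots carry surrogate values, arrays were not normalized to each other, and other deposited marks flag spots well above background, saturated or outlying. The authors also deposited a log2 table, quantile normalized between arrays after an offset, and their processing notes name limma and R 2.15.1. It was an alternative here.

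From the processed intensity, log2 minus the array's 75th percentile over non-control probes was taken, and spots of a probe were averaged without outliers. Probes above background on 3 or more of the 16 arrays were fitted in 1 linear model of the 4 groups with limma 3.58.1 in R 4.3.3, and its moderated two-sided test was used at an unadjusted p under 0.05, as in the study's statistics, with Benjamini-Hochberg values beside it. The script was tested on simulated data. Named members were all SLC2 probes, listed brain transporters, the 10 largest differences past the criterion and any adjusted call, and the members named beyond these were chosen after their values were seen. Members and gene lists were chosen with earlier results of these data known. Of the 31 member probes 19 matched RefSeq by accession, and the array sequence of SLC25A37 is filed there under another locus. The values of 1 tested member probe are not reported here, but it is kept in the counts and medians. No genome coordinates are printed, because the arrays name no build.

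Replicate numbers come from the labels. Same-numbered NC and NK arrays deviated together from their group means over probes (mean correlation 0.30, all 3 over 0.1, against -0.10 for other pairs). For HC and HK 3 of 4 did (mean 0.22, against -0.06 for other pairs). The main fit did not pair these arrays, and fits with a replicate block are given at the end. All p-values measure the spread between fetuses, 1 array each. Alternatives were other background corrections and scalings, the deposited log2 values, other filters, slide and replicate blocks, single slides, only the groups compared, probes averaged per gene, and leaving out each array.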

Additional observations from a re-analysis of the deposited data

Results flagged for a closer look

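NK replicate 2 stood apart from its group for the SLC2A3 probe A_70_P051107, at 4.01 where the other NK arrays lay between 3.21 and 3.32. It was found by Dixon's test of the most distant array, run on 72 sets of 1 probe in 1 group, and chance marks about 1 set in 20. The second SLC2A3 probe gave 4.30 on the same array against 3.28 to 3.63.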

How the results depend on the processing

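No difference of a solute carrier named in the report as past the criterion changed sign under any alternative run for it. That does not cover SLC15A1, for which no alternative was run. Beside the counts below, the share of all probes tested that passed under the same setting stands in brackets. Without ketamine, 5 solute carrier probes passed in HC-NC (10.8%). This count was 2 within slide 1 (8.08%) and 2 within slide 2 (5.63%). It was 3 when the probes of a gene were averaged (10.8%), which leaves the same 3 genes. When 1 array was left out it was 3 to 5, the lowest without NC replicate 1 (7.62%). In HK-NK the count of 1 (5.26%) was 2 with no filter on dim probes (4.63%) and 2 with the slide as a block (5.98%). It was 2 within slide 1 (6.55%), 0 within slide 2 (2.3%) and 2 with only the groups compared (6.03%). With a replicate block over all groups it was 5 (8.51%). When 1 array was left out it was 1 to 2 (shares from 3.96% to 6.5%). In NK-NC the count of 0 (1.78%) was 0 to 1 when 1 array was left out. The calls were SLC39A13 without NK replicate 1 (2.53%) and SLC25A10 without NK replicate 3 (2.22%). With either replicate block the count was 0 (2.54% and 3.08%). In HK-HC the count of 0 (4.74%) was 2 with normexp (0.733%) and 2 with no filter (4.43%). It was 3 with the slide as a block (5.53%), 1 within slide 1 (3.32%) and 2 within slide 2 (3.68%). With the replicate block over all groups it was 2 (8.41%), and with the replicate block within each oxygen group 4 (9.6%). When 1 array was left out it was 0 to 3, the highest without HC replicate 1 (8.54%). The 2 probes with no filter were those of SLC9A3, well above background on no array. In the interaction the count of 0 (3.44%) was 1 with median scaling (3.23%). It was 1 for probes well above background on all 16 arrays (3.34%) and 2 with the slide as a block (3.95%). Within slide 1 it was 1 (2.81%), and with either replicate block 2 (5.31% and 6.06%). When 1 array was left out it was 0 to 2, the highest without HC replicate 5 (3.92%). With the replicate block SLC25A33 missed the criterion in HC-NC, at 0.34 (SE 0.17). For SLC2A3, HK-HC was -0.72 and -0.70 and met it with either replicate block, as did the interaction on both probes, at -1.14 on A_70_P051106 with either block. The causes were not tested. The fit of only the groups compared has no interaction, and a block within each oxygen group cannot give HC-NC or HK-NK. Normexp moved the median of all probes by 0.37 in HC-NC, 0.28 in NK-NC and -0.33 in the interaction. Over 28 alternatives the HC-NC difference of SLC2A3 A_70_P051106 lay between 0.74 and 1.58 and that of SLC2A5 A_70_P051037 between 0.79 and 1.36, and each missed the criterion in 1. Arrays of 3 to 5 per group limit the precision.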
